A study of Mus musculus with 24 samples.

Results

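The comparison described here sets muscle stem cells activated for 60 h after muscle injury against cells activated for 36 h, by the level of their microRNAs (miRNAs). It uses the 12 arrays whose titles name activated stem cells at 36 or 60 h, 6 per time point, of 24 arrays in the series. The cells of both groups came from male C57BL/6 mice aged 8 weeks whose muscle had been injured, and the groups differ in the labels by the time after injury alone. No transgene, Cre line or drug is named for them, and the labels give no surface marker or sort by which the cells were taken. The series also holds quiescent cells (0 h) and cells at 72 h, which entered the estimate of the spread and appear below where they place a level. Each time point was measured in 3 replicates on a TaqMan rodent microRNA card of type A and in 3 on a card of type B. The design text calls the replicates technical, so every p-value below measures the spread between repeat measurements and does not cover variation between mice.

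A miRNA is a short RNA, cut from a hairpin precursor, that binds messenger RNAs through its seed (bases 2 to 8) and lowers their translation or stability. The hairpin has a pair of arms, and the strand written with an asterisk is the one that was first taken to be the less abundant. These stem cells rest beside the muscle fibre, enter the cell cycle after injury and go on to divide as myoblasts, which later differentiate and fuse. Some miRNAs are known for a place in this course: miR-489 for holding the cells quiescent, miR-31 for holding back translation of the myogenic factor Myf5, and miR-206, miR-1 and miR-133 for their enrichment in muscle and their rise with differentiation. Muscle after injury also holds leukocytes, endothelial cells, red blood cells, smooth muscle and other mesenchymal cells, whose miRNAs a preparation of stem cells can carry.

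The sequences below are those the results turn on, from RefSeq (build GRCm38.p6), written 5′ to 3′ with the seed in capitals. The first set holds the miRNAs that were higher at 60 h and the members of the miR-17-92 cluster beside which they stand. miR-31 lies at chr4:88910614-88910635 on the minus strand, miR-206 and miR-133b lie on chromosome 1 at chr1:20679055-20679076 and chr1:20682834-20682855 on the plus strand, and miR-182 and miR-183 lie on chromosome 6 at chr6:30165962-30165986 and chr6:30169711-30169732 on the minus strand. None of these loci lies within the span of a protein-coding gene in that annotation.
miR-31: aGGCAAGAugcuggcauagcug
miR-31*: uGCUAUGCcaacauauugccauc
miR-182: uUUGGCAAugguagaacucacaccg
miR-183: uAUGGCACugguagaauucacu
miR-206: uGGAAUGUaaggaagugugugg
miR-133b: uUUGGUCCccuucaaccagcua
miR-17: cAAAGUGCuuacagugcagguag
miR-20a: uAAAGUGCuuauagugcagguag
miR-18a: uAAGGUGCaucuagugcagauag
miR-19a: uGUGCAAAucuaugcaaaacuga

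The second set holds miRNAs that were lower at 60 h and are known for another cell type, for a Hox cluster, for the imprinted Dlk1-Dio3 domain or for quiescence. miR-126-3p lies in the span of Egfl7 (chr2:26591402-26591423, plus strand), miR-127 and miR-136 in that of Rtl1 (chr12:109592888-109592909 and chr12:109595331-109595352, plus strand), and miR-489 in that of Calcr (chr6:3721922-3721944, minus strand). The sequences of miR-10a and miR-10b differ by U12A, and those of miR-146a and miR-146b by G18A and U21C, with positions counted from the 5′ end and the first-named miRNA's base first. Assays for such near-identical miRNAs may read each other's target in part, so their separate values are uncertain.
miR-126-3p: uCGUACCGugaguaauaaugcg
miR-223: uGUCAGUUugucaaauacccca
miR-146a: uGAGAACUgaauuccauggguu
miR-146b: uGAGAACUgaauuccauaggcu
miR-10a: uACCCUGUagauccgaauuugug
miR-10b: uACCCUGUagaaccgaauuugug
miR-127: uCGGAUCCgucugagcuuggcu
miR-136: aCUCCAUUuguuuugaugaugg
miR-489: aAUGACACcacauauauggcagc

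The third set holds members of 2 families whose miRNAs share a seed and whose changes differed in size, described further on. The seed of the first 4 is AGCAGCA and that of the last 3 is GUAAACA.
miR-15b: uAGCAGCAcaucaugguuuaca
miR-16: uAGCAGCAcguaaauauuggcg
miR-195: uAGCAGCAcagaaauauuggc
miR-497: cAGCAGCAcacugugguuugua
miR-30a: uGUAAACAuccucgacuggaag
miR-30c: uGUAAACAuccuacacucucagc
miR-30e: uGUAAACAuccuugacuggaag

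Between 36 and 60 h more miRNAs fell than rose relative to U6, a small nuclear RNA that served as the reference. The level of an assay is the mean threshold cycle (Ct) of U6 on the array minus the Ct of the assay, so it is a log2 value, higher values mean more RNA, and a step of 1 is a 2-fold difference. Detection on an array asked for a Ct below 35 in every spot of the assay, and an assay was tested if at least 2 replicates of both groups detected it, which held for 279 of 584 assays (184 on card A and 95 on card B). An assay was called changed at a limma adjusted p below 0.05 (Benjamini-Hochberg over the 279 assays) and a fold change of 2 or more. By that rule 15 assays rose (5.38% of those tested), 138 fell (49.5%) and 126 were not called, so 54.8% were called in all. Of the assays not called, 70 had an adjusted p below 0.05 and a change under 2-fold. The median change over the 279 assays was -1.02 on the log2 scale, with -1.27 on card A and -0.74 on card B. Of the 264 assays detected on 3 of 3 arrays of both groups, 49 had 60 h levels all above the 36 h levels (18.6%) and 184 all below them (69.7%).

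**Figure D1:**
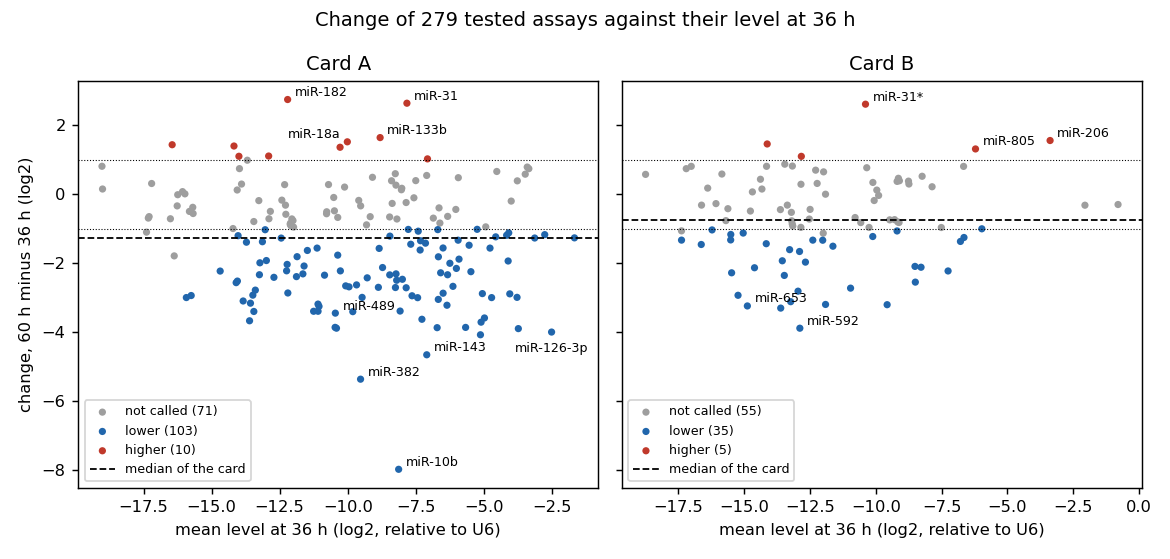
Change between 36 and 60 h (y axis, log2) against the mean level at 36 h (x axis, log2 relative to U6) for the 184 tested assays of card A and the 95 of card B; each point is 1 assay. Dotted lines mark 2-fold changes and dashed lines the card medians of -1.27 and -0.74; called decreases span the range of levels, and miR-31, miR-182 and miR-31* stand highest.

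The size of the general shift depended on the reference RNA. Against U6, the small nucleolar RNA snoRNA202 changed by -1.53 on card A and -1.44 on card B, U87 by -0.90 and -0.63 and the cytoplasmic RNA Y1 by -0.54 and -0.78, while snoRNA135 changed by -0.12 and -0.06 (log2, means of 3 arrays). With snoRNA202 as the reference the median change was 0.48 and the calls were 94 higher (33.7%) and 54 lower (19.4%). With the global mean, taken over those miRNA assays that all 12 arrays of a card detected, it was 0.10, with 75 higher (26.9%) and 64 lower (22.9%). Y1 gave a median of -0.37 with 46 higher (16.5%) and 99 lower (35.5%), and snoRNA135 gave -0.91 with 15 higher (5.38%) and 130 lower (46.6%). The 15 increases were called higher under each of the 4 other references, 54 of the 138 decreases were called lower under each of them, and no called assay was called the opposite way under the global mean or snoRNA202. Changes below are against U6, and calls with the global mean are given beside the lists. The 15 increases and the assays of the Calcr locus kept their call there.

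**Figure D2:**
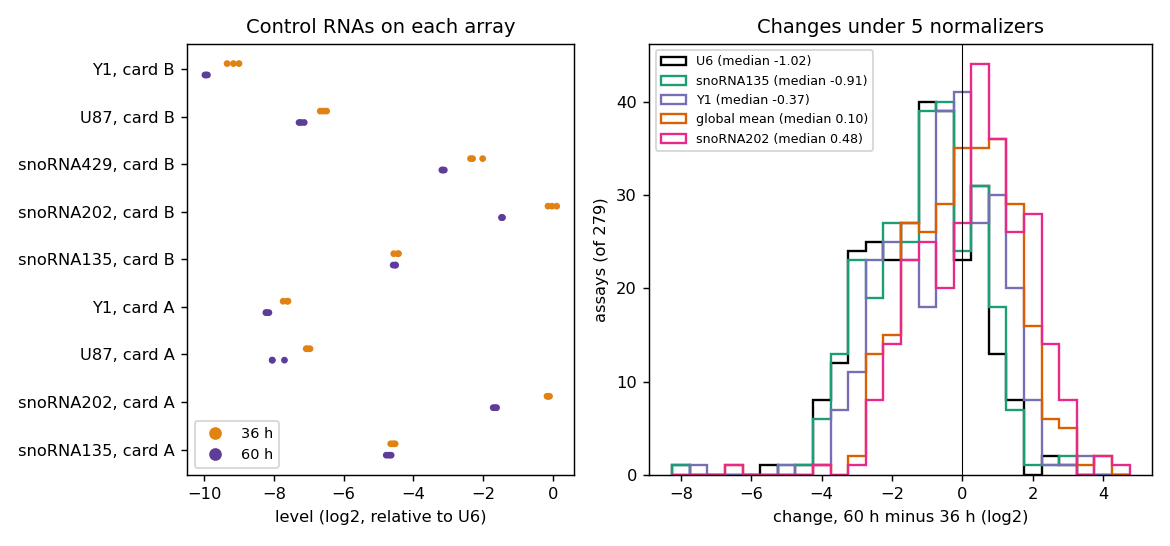
Left, levels of the control RNAs relative to U6 on each of the 3 arrays per group and card (log2); snoRNA202 lay lower at 60 h on both cards and snoRNA135 nearly level. Right, number of assays (y axis) by change between 36 and 60 h (x axis, log2, bins of 0.5) for the 279 tested assays with each of 5 references; the medians run from -1.02 with U6 to 0.48 with snoRNA202.

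Fewer assays were detected at 60 h than at 36 h. On card A 212, 210 and 212 assays were detected at 36 h and 188, 190 and 188 at 60 h, and on card B 116, 120 and 115 against 99, 97 and 100. The groups did not overlap on either card, and the two-sided exact permutation p was 0.10 on each, which is the smallest that 3 against 3 arrays allow. U6 itself came up later at 60 h, at Ct 15.37 to 15.41 on card A against 14.86 to 14.92 at 36 h, and at 15.45 to 15.52 on card B against 14.68 to 14.76. The number of detected assays moved with that shift, and its part in the counts was not tested. Cards give no read depth, and the precision of a level followed its Ct: the median SD over replicates at 36 h was 0.0576 for assays below Ct 25, 0.159 from Ct 25 to 30 and 0.463 from Ct 30 to 35, and at 60 h 0.0544, 0.132 and 0.408.

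Among the muscle-enriched miRNAs, miR-206 and miR-133b rose together from their shared locus on chromosome 1. The level of miR-206 was -3.43, -3.32 and -3.37 at 36 h and -1.83, -1.80 and -1.81 at 60 h, a 2.95-fold increase (log2 change 1.56 ± 0.12 SE, adjusted p = 2.92e-07). The level of miR-133b was -8.83, -8.84 and -8.76 against -7.13, -7.23 and -7.13, a 3.13-fold increase (1.65 ± 0.11, adjusted p = 2.52e-07). For both, the lowest 60 h array lay more than 1 log2 unit above the highest 36 h array. The change of miR-206 rests on card B, where the constant that the authors subtracted at 36 h differs from U6 by 2.26 cycles, and with their constants it was -0.69. On card A at 36 and 60 h, and on card B at 60 h, the authors' constant equals the mean U6 Ct. The 10 increases on card A therefore kept their calls, as they had to. The 5 increases on card B each moved down by the same 2.26, and none of them was then called higher.

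miR-133a and miR-1, the muscle miRNAs encoded by other loci, moved less or apart. For miR-133a the 36 h levels were -8.26, -8.22 and -8.21 and the 60 h levels -7.88, -8.11 and -7.89, a change of 0.27 ± 0.07 that lies under 2-fold (adjusted p = 8.18e-03). The mouse assay for miR-1 fell (-1.27 ± 0.24, levels -12.54, -12.41 and -12.38 against -14.00, -13.82 and -13.33), whereas the rat assay for miR-1 on the same card gave 0.28 ± 0.08 (levels -10.68, -10.80 and -10.65 against -10.46, -10.51 and -10.30). The assays differ by 1.55 in their change, and the mouse one changed by 0.18 with the global mean and by 0.26 with snoRNA202, so no direction is given for miR-1. Of the 8 muscle-enriched assays 5 were tested, 2 rose (5.38% over all tested assays) and 1 fell (49.5%), with a median of 0.28 beside -1.02 over all tested assays. Under the global mean 4 of the 5, the rat miR-1 assay among them, were called higher, at a background of 26.9%. The list counts both miR-1 assays, and its median of 0.28 is the value of the rat one. The assays for miR-208, miR-208b and miR-499, which accompany myosin heavy chain genes, were detected on no array of either group.

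miR-31 rose on both arms of its hairpin relative to U6. The level of miR-31 was -7.80, -7.83 and -7.85 at 36 h and -5.15, -5.19 and -5.20 at 60 h, a 6.26-fold increase (2.65 ± 0.09, adjusted p = 1.99e-09). Its partner strand miR-31*, measured on the other card, rose 6.13-fold (2.62 ± 0.14, adjusted p = 1.94e-07), from -10.46, -10.21 and -10.49 to -7.90, -7.67 and -7.75. The replicates of the 2 times did not overlap for either strand, and the changes of the strands differed by 0.03 on the log2 scale. That likeness depends on the reference on card B: with the authors' constants miR-31* came to 0.36 and was no longer called. miR-31 stayed at 2.64, since the constants on card A equal the mean U6 Ct.

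In the cluster of miR-183, miR-96 and miR-182, known from sensory organs and from tumours, miR-182 and miR-183 were also higher at 60 h. miR-182 had the largest increase among the tested assays, 6.74-fold (2.75 ± 0.45, adjusted p = 2.86e-04), with levels of -12.30, -12.02 and -12.31 at 36 h and -9.41, -9.51 and -9.45 at 60 h. Its standard error is wide beside the SD of 0.16 at 36 h and 0.05 at 60 h because the shared spread takes in the 0 h arrays, where the SD was 1.17. miR-183 was detected on no 36 h array and on 3 of 3 arrays at 60 h, at -14.58, -14.68 and -14.51, at least 46.1-fold above the level of Ct 35 at 36 h. miR-183* was likewise detected at 60 h alone, at -12.87, -12.90 and -12.56, at least 182-fold above that limit. At 72 h miR-183 was detected on 3 of 3 arrays and miR-183* on none. miR-96 was detected on no array of either group.

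**Figure D3:**
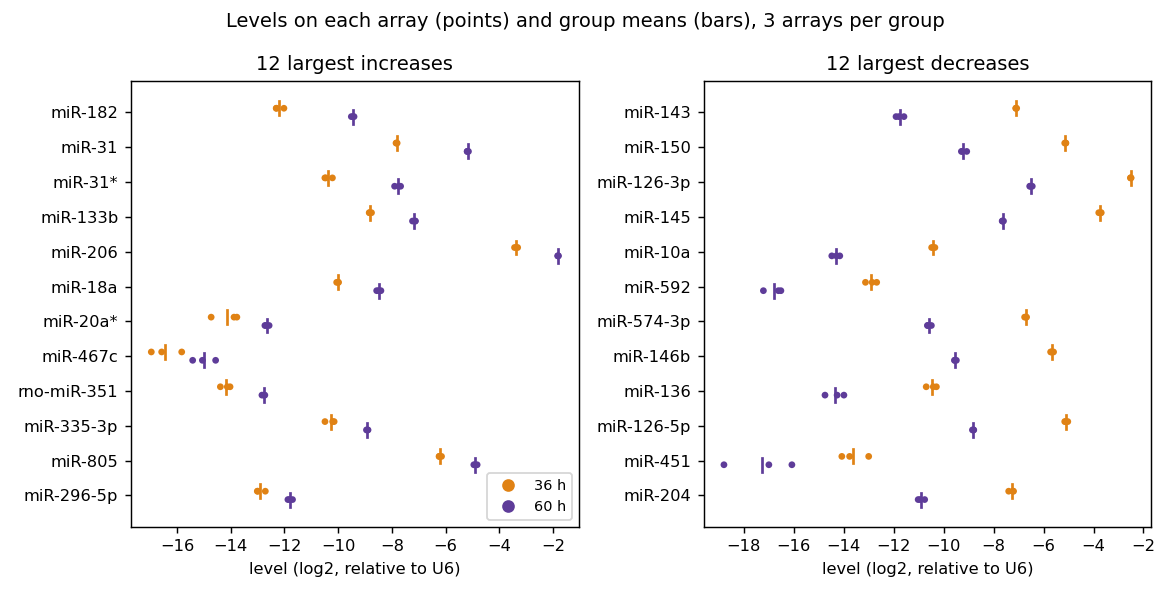
Levels on each array (points, log2 relative to U6) and group means (bars) for the 12 largest increases (left) and the 12 largest decreases (right) among called assays whose replicates do not overlap, 3 arrays per group. The groups do not overlap in any row. For miR-467c and miR-451 the gap between the groups is smaller than the range of the replicates within a group.

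The miR-17-92 miRNAs and their paralogs, known for driving proliferation, had small changes that ran one way. Of 13 assays of the 3 paralog clusters 11 were tested, of which miR-18a (1.52 ± 0.09, 2.88-fold) and miR-19a (1.03 ± 0.07, 2.04-fold) rose and 9 were not called. None fell. The other 9 lay between 0.39 and 0.79, and the 60 h levels of each of the 11 lay above its 36 h levels on 3 of 3 arrays, against 18.6% of all assays detected throughout. The list's median was 0.58 beside -1.02 over all tested assays, and with the global mean or snoRNA202 all 11 were called higher (26.9% and 33.7% of all assays).

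The level of miR-18a was -10.06, -9.99 and -10.00 at 36 h and -8.41, -8.57 and -8.50 at 60 h. miR-19a went from -7.12, -7.06 and -7.03 to -6.04, -5.98 and -6.10. miR-17 had -3.43, -3.34 and -3.26 against -2.58, -2.65 and -2.57, a change of 0.74 ± 0.07 (adjusted p = 4.50e-06). These 3 share 1 hairpin cluster on chromosome 14, and their changes differed from 0.74 to 1.52. miR-17 and miR-20a (0.66 ± 0.06) share a seed and differ by C1U and C12U, and they and miR-106a (0.79 ± 0.07) may be read by each other's assay in part. In the cluster inside Mcm7, a gene of DNA replication, miR-25, miR-93 and miR-106b changed by 0.49, 0.55 and 0.39. Partner strands of the clusters gave less even values: miR-20a* rose by 1.46 ± 0.28 and miR-106b* by 1.10 ± 0.39, while miR-17* changed by -0.49 and was not called. For miR-106b* the replicates overlapped, since the second 36 h array (-11.87) lay above the second 60 h array (-12.12). With the authors' constants miR-20a* changed by -0.79 and was not called, and miR-106b* changed by -1.15 and was called lower.

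The remaining increases came from scattered loci. miR-335-3p, from an intron of the imprinted gene Mest, rose 2.58-fold (1.37 ± 0.11), from -10.49, -10.15 and -10.20 to -8.89, -8.95 and -8.91, while the other arm, miR-335-5p, changed by -0.18 ± 0.10. The rat assay for miR-351, which shares a cluster with miR-322 and miR-503 on the X chromosome, rose 2.64-fold (1.40 ± 0.11), whereas the mouse assay for miR-351 was detected on no array of either group. The 4 other tested members without an asterisk lay between -0.67 and 0.31 and were not called, and of the partner strands miR-322* fell (-1.61) and miR-503* changed by -0.96. The rat miR-351 assay, miR-503 and miR-542-3p were called higher with the global mean. miR-805 rose 2.49-fold (1.32 ± 0.12), miR-296-5p 2.16-fold (1.11 ± 0.11) and miR-7a 2.15-fold (1.10 ± 0.14). miR-467c rose 2.71-fold at low levels, -15.82, -16.57 and -16.96 against -15.42, -15.06 and -14.56, where the replicates of each group spread widely. With the authors' constants the increase of miR-805, on card B, became -0.94.

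miR-489 and miR-653, which share the Calcr locus, both fell by about the same amount relative to U6. The level of miR-489 was -10.55, -10.42 and -10.39 at 36 h and -13.82, -13.60 and -14.30 at 60 h, a 10.9-fold decrease (log2 change -3.45 ± 0.16, adjusted p = 1.93e-08). A rat assay for it on card B changed by -3.20 ± 0.22, and miR-653 by -3.24 ± 0.27 (levels -15.03, -14.96 and -14.65 against -17.62, -18.35 and -18.39). miR-653 is on card B too, where the constant that the authors subtracted at 36 h differs from U6 by 2.26 cycles. With their constants the decreases on card B are larger, so the likeness with miR-489 on card A depends on the reference of card B. In each of the 3 assays the groups were apart by several times their spread, and the 3 were called lower under the global mean too (22.9% of all assays). This locus was the subject of published work on these samples, so its direction is not independent evidence.

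The let-7 family, known for holding back growth genes, fell by modest amounts. Of 9 assays 6 were tested, and let-7c (-1.56 ± 0.08), let-7b (-1.48 ± 0.10), let-7g (-1.35 ± 0.08) and let-7i (-1.03 ± 0.07) fell (4 of 6, beside 49.5% of all tested assays), while let-7e (-0.95) and let-7d (-0.84) lay under 2-fold. The median of -1.19 stands beside -1.02 over all tested assays, and with the global mean none of the 6 was called and let-7g and let-7i changed by 0.10 and 0.42. let-7a and let-7f differed from the rest: let-7a had -10.09, -9.69 and -9.96 at 36 h and let-7f -11.24, -11.28 and -11.33, and neither had a spot below Ct 35 at 60 h, which puts them at least 827-fold and 321-fold above that limit. At 72 h neither was detected on any array, and at 0 h let-7a was detected on 1 of 3 arrays (-11.47) and let-7f on none. Members that differ from them by few bases, such as let-7c, were detected on 3 of 3 arrays at each of these times. Whether the assays for let-7a and let-7f worked on the 60 and 72 h arrays was not tested.

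The miR-15/16 family, known for repressing cell cycle genes, split within its shared seed AGCAGCA. miR-195 fell 7.96-fold (-2.99 ± 0.06), from -3.79, -3.77 and -3.78 to -6.78, -6.74 and -6.79, and miR-497 from the same locus on chromosome 11 fell 5.53-fold (-2.47 ± 0.07). miR-16 fell 2.25-fold (-1.17 ± 0.06, adjusted p = 1.90e-08), from -2.80, -2.74 and -2.74 to -3.93, -3.93 and -3.94, but changed by 0.28 with the global mean and by 0.36 with snoRNA202. miR-15b had a change of the other sign, 0.40 ± 0.05 (levels -7.51, -7.51 and -7.48 against -7.09, -7.13 and -7.09), which is under 2-fold with U6 and called higher with the global mean. miR-15a was detected on 3 of 3 arrays at 36 h and on 1 at 60 h, 7.11-fold above that single 60 h value.

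The miR-30 family showed a like spread. All 5 members fell, beside 49.5% of all tested assays, and the log2 change was -2.71 for miR-30d, -2.67 for miR-30a, -2.28 for miR-30e, -1.24 for miR-30c and -1.02 for miR-30b, each with an SE of 0.06 to 0.09. With the global mean miR-30a and miR-30d were called lower (2 of 5, beside 22.9%) and miR-30c and miR-30b changed by 0.21 and 0.43. miR-30a and miR-30e differ by C13U, and their assays may read each other's target in part. The 36 h and 60 h levels of miR-30a were -6.18, -6.12 and -6.10 against -8.78, -8.75 and -8.89.

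Other families fell with few exceptions. In the miR-181 family miR-181a (-2.99 ± 0.13) and miR-181c (-3.10 ± 0.24) fell, as did miR-26a (-2.89 ± 0.06), miR-26b (-2.25 ± 0.07), miR-152 (-3.0 ± 0.06) and miR-148a (-2.22 ± 0.12), while miR-148b changed by -0.50 ± 0.30. Against the global mean miR-181a, miR-181c, miR-26a and miR-152 were called lower, and miR-26b (-0.80) and miR-148a (-0.78) were not called. In the clusters of miR-23, miR-27 and miR-24 the 4 tested assays fell, beside 49.5% of all tested assays: miR-23b (-2.66 ± 0.09), miR-27b (-1.45 ± 0.10), which is known to repress the muscle stem cell factor Pax3, miR-24 (-1.27 ± 0.07) and miR-27a (-1.07 ± 0.06). The last 3 lay at -0.00, 0.18 and 0.38 with the global mean, where miR-23b alone of the 4 was called lower, beside 22.9% of all tested assays. miR-100 (-2.15 ± 0.11), miR-99a (-2.0 ± 0.09) and miR-125b-5p (-1.94 ± 0.04) fell, while miR-125a-5p (-0.64) and miR-99b (0.13 ± 0.12) were not called. None of these 5 was called lower with the global mean (-0.71, -0.56 and -0.49 for the first 3), and miR-99b was called higher. In the miR-29 family miR-29c (-1.62) and miR-29a (-1.27) fell and miR-29b changed by 0.12 ± 0.36. With the global mean miR-29c and miR-29a lay at -0.17 and 0.18 and were not called, and miR-29b was called higher (1.57).

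Several families known in proliferating cells changed by less than 2-fold relative to U6, apart from miR-34a. miR-221 and miR-222, which repress the cell cycle inhibitor p27, changed by 0.60 ± 0.09 and -0.20 ± 0.08, and neither was called. The 4 members of the family of miR-130 and miR-301 lay between -0.66 and 0.28. In the family of miR-34 and miR-449, miR-34a, a target of p53, fell (-2.22 ± 0.18; 2 of 3 arrays detected it at 60 h), and miR-34b-3p, miR-34c and miR-449a changed by -0.65, 0.01 and 0.99 ± 0.49. Against the global mean, miR-221, miR-222, 3 assays of the miR-130 family and 2 of the miR-34 family were called higher, at a background of 26.9%. miR-21, an abundant miRNA of growing and inflamed tissue, changed by -0.69 ± 0.06 (levels -6.83, -6.83 and -6.90 against -7.49, -7.65 and -7.50), which is under 2-fold, and was not called with the global mean either.

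**Figure D4:**
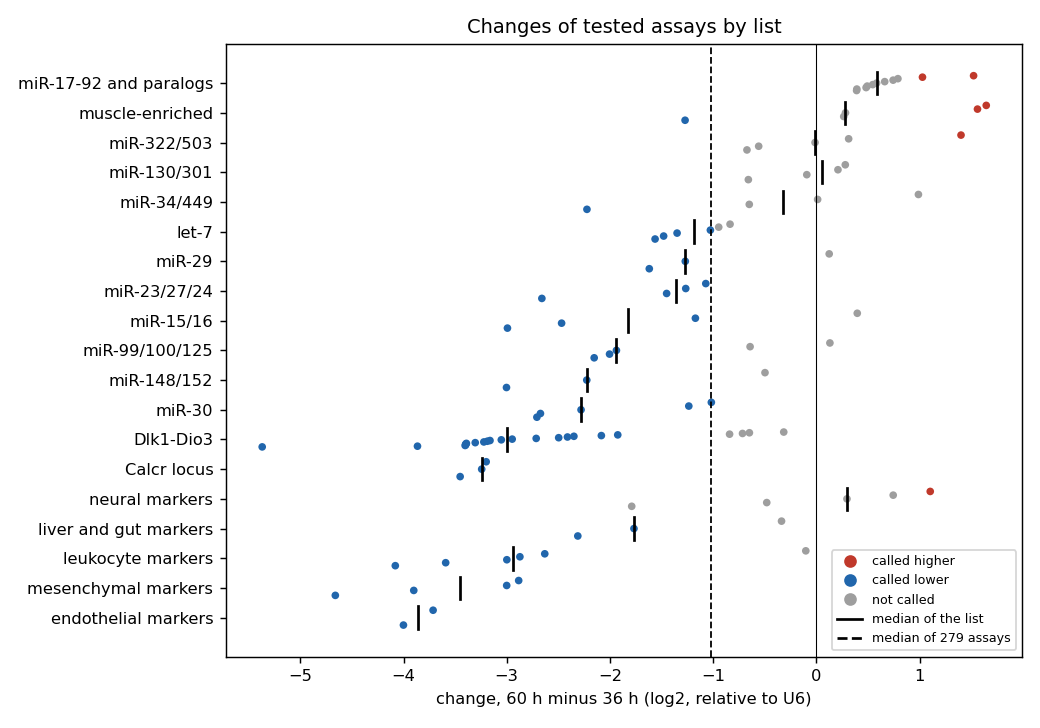
Change between 36 and 60 h (x axis, log2 relative to U6) of every tested assay in 19 lists (rows), coloured by call; short bars are list medians and the dashed line is the median of -1.02 over all 279 tested assays. The miR-17-92 list lies right of 0 throughout, and the Dlk1-Dio3, Calcr, leukocyte, mesenchymal and endothelial lists have medians near or below -3.

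The miRNAs of the imprinted Dlk1-Dio3 domain on chromosome 12, which are expressed from the maternal chromosome, fell in most of the assays tested. Of 58 assays 22 were tested, 18 fell (49.5% over all tested assays) and none rose, with a median of -3.0 beside -1.02. With the global mean 14 were called lower and 1 higher (22.9% and 26.9% over all tested assays). A further 7 were detected at 36 h alone, beside 10.7% of all assays detected on any of the 12 arrays. Of the rest 27 were detected on no array of either group, and the remaining 2 (miR-381 and miR-673-3p) were detected too seldom to be tested. By position, in the group of hairpins at Rtl1 all 6 tested assays fell, and in the distal group of 15 hairpins 14 of 17 did. These groups take in asterisk strands, which the list of 58 leaves out, and hold no rat assays. Their counts are therefore not parts of the 22 and 18.

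miR-127 stood at -6.70, -6.60 and -6.72 at 36 h and at -9.87, -9.68 and -9.62 at 60 h, an 8.30-fold decrease (-3.05 ± 0.07, adjusted p = 8.14e-11). miR-434-3p fell 10.5-fold (-3.39 ± 0.05), from -8.11, -8.08 and -8.04 to -11.45, -11.47 and -11.48. miR-136 fell 14.6-fold (-3.87 ± 0.21), from -10.69, -10.41 and -10.29 to -13.99, -14.74 and -14.26. The groups of all 3 are far apart beside their spread, which was widest for miR-136 at 60 h. miR-382 changed by -5.37 ± 0.24, with levels of -9.67, -9.36 and -9.55 at 36 h and of -14.50 and -15.30 on the 2 arrays that detected it at 60 h. Of the tested members 4 were not called, miR-376b (-0.32 ± 0.23), miR-369-5p (-0.65 ± 0.79), miR-494 (-0.72 ± 0.19) and the rat assay for miR-381 (-0.84 ± 0.14), and miR-376b was called higher with the global mean.

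Of the 12 largest decreases with detection on 3 of 3 arrays of both groups, 6 were miRNAs on the marker lists of other cell types (miR-143, miR-145, both miR-126 strands, miR-150 and miR-451). The miR-126 strands come from 1 hairpin. Among the 279 tested assays the lists held 6 leukocyte, 2 endothelial, 1 erythroid, 4 mesenchymal, 1 epithelial, 5 neural and 3 liver and gut assays. miR-143 and miR-145, which mark smooth muscle and other mesenchymal cells, fell 25.3-fold (-4.66 ± 0.08, adjusted p = 1.42e-11) and 14.9-fold (-3.90 ± 0.06). miR-143 had -7.11, -7.11 and -7.07 at 36 h and -11.79, -11.90 and -11.58 at 60 h, and miR-145 had -3.69, -3.71 and -3.79 against -7.65, -7.60 and -7.64. miR-199a-3p and miR-214, also mesenchymal, fell too (-3.0 ± 0.05 and -2.88 ± 0.05), and miR-199a-5p was detected on no array of either group. The 4 tested assays were called lower with the global mean as well (22.9% of all assays). In RNA from a whole preparation, fewer cells of a type and less RNA per cell cannot be told apart.

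miR-126, from the endothelial gene Egfl7, fell on both arms. miR-126-3p had -2.50, -2.51 and -2.52 at 36 h and -6.45, -6.53 and -6.55 at 60 h, a 16-fold decrease (-4.0 ± 0.05, adjusted p = 4.54e-12), and miR-126-5p fell 13.1-fold (-3.71 ± 0.06). Both were called lower with the global mean. No assay of the comparison had a smaller adjusted p than miR-126-3p. Its 60 h level lay below its 0 h mean of -4.73 as well.

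Of the 6 leukocyte assays 5 fell, beside 49.5% of all tested assays. With the global mean 4 were called lower (22.9% of all assays) and 1 higher, and miR-142-3p lost its call. Its change there, -1.18, was still beyond 2-fold, and its adjusted p was not below 0.05. The shared spread takes in the 0 h arrays, where its SD relative to U6 was 1.54, beside 0.08 at 36 h and 0.13 at 60 h. miR-150, known from lymphocytes, fell 16.9-fold (-4.08 ± 0.08), from -5.15, -5.11 and -5.11 to -9.07, -9.25 and -9.29. miR-223, known from myeloid cells, fell 12.1-fold (-3.59 ± 0.07, adjusted p = 2.37e-11), from -5.02, -5.0 and -4.91 to -8.51, -8.60 and -8.59. The blood cell miRNAs miR-142-3p and miR-142-5p fell (-2.63 ± 0.59 and -3.0 ± 0.48), the latter with detection on 2 of 3 arrays at 60 h. miR-146a, which inflammatory signals induce, fell 7.32-fold (-2.87 ± 0.09), and its near copy miR-146b fell 14.6-fold (-3.87 ± 0.05). miR-155, which activated immune cells make, did not follow them: its levels were -7.58, -7.56 and -7.56 against -7.57, -7.78 and -7.66 (-0.10 ± 0.07, adjusted p = 0.205), and it is the 1 called higher with the global mean. miR-451 of red blood cells changed by -3.67 ± 0.75 at low levels, -14.07, -12.99 and -13.76 against -16.99, -18.79 and -16.07.

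The levels of each marker list were also summed on a linear scale as a percentage of U6, a value led by the most abundant members that compares a list with itself across arrays. The 6 leukocyte assays summed to 7.61 to 7.94% on the 36 h arrays and to 1.06 to 1.15% on the 60 h arrays. The 2 endothelial assays stood at 20.4 to 20.6% and then at 1.29 to 1.37%, and the 5 mesenchymal assays at 14.8 to 15.4% and then at 1.39 to 1.43%. The 7 muscle-enriched mouse assays moved the other way, from a range of 9.82 to 10.6% at 36 h to one of 29.3 to 29.8% at 60 h. Of that sum miR-206 made up 9.26 to 10.0% and 28.2 to 28.8%, so the direction of the sum rests on miR-206. miR-206 was called higher with U6 and with each of the 4 other references, but changed by -0.69 with the authors' constants. The 6 other assays went from 0.563 to 0.588% to 1.03 to 1.15%. The erythroid assay miR-451 stood at 0.0058 to 0.0123% and then at 0.0002 to 0.0015%. The 7 epithelial assays, of which 4 were detected on no array of either group, summed to 0.232 to 0.259% and then to 0.0520 to 0.0567%. The 8 neural assays, with miR-124 and both miR-129 strands undetected, summed to 0.0830 to 0.0968% and then to 0.0779 to 0.0865%, and the 4 liver and gut assays, with miR-122 undetected, to 0.107 to 0.109% and then to 0.0281 to 0.0318%. Markers of leukocytes, endothelium and mesenchyme were thus present at 36 h and lower at 60 h, moving with the decreases described above, and their part in those results was not tested.

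Within the remaining marker lists, miR-203 was the 1 epithelial assay tested and fell (-2.13 ± 0.08) with U6 but was not called with the global mean, and miR-200c and miR-205 were detected at 36 h alone. miR-192 and miR-194, known from liver and gut, fell (-1.77 and -2.31), and miR-215 changed by -0.34 ± 0.20. Neither miR-192 (-0.32) nor miR-194 (-0.86) was called with the global mean, and miR-215 was called higher. Of the 5 neural assays tested miR-7a rose and none fell (5.38% and 49.5% over all tested assays), with miR-9 at -1.79 ± 0.66 (adjusted p = 0.0605). With the global mean 3 of the 5 were called higher, beside 26.9% of all tested assays. None of the 13 assays of the miR-290 and miR-302 clusters, which mark pluripotent cells, could be tested, and 11 were detected on no array of either group.

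Other large decreases stood outside those lists. miR-10a and miR-10b, from the Hoxb and Hoxd clusters, changed by -3.89 ± 0.18 and -7.99 ± 0.36. miR-10a had -10.48, -10.35 and -10.42 at 36 h and -14.15, -14.29 and -14.47 at 60 h, and miR-10b had -8.10, -8.12 and -8.17 against -16.21 and -16.02 on the 2 arrays that detected it. The miR-10b assay stood higher than that of miR-10a at 36 h and lower at 60 h. With a single base between them these assays may read each other's target in part, so the order of the miRNAs themselves is uncertain. miR-574-3p fell 14.7-fold (-3.87 ± 0.06), miR-592 14.8-fold (-3.89 ± 0.22) and miR-204, from an intron of Trpm3, 12.4-fold (-3.63 ± 0.10, from -7.23, -7.20 and -7.39 to -10.94, -10.75 and -11.02). miR-210, which hypoxia induces, fell 9.55-fold (-3.25 ± 0.19), from -11.12, -10.89 and -11.15 to -14.17, -14.51 and -14.25. miR-10a, miR-10b and miR-210 were called lower with the global mean too. In each of these but miR-10b 3 of 3 arrays of both groups gave a level and the groups did not overlap.

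Detection in 1 group alone was more frequent at 36 h. Of the 354 assays detected on any of the 12 arrays, 38 (10.7%) were detected on 3 of 3 arrays at 36 h and at most 1 at 60 h, and 6 (1.69%) the other way round. No spot of the other group lay below Ct 35 for 28 of the 38 and 4 of the 6. Apart from let-7a, let-7f and miR-15a, the largest at 36 h were the rat assay for miR-136*, at least 161-fold above the Ct 35 limit at 60 h, and miR-696, which is 3.69-fold above the highest spot of the other group and so close to it. Among the assays with no 60 h spot below Ct 35, the Dlk1-Dio3 members miR-433, miR-431 and miR-370 followed, at least 63.7-fold, 56.0-fold and 35.1-fold above the limit. At 60 h, besides miR-183 and miR-183*, they were miR-501-3p (2.69-fold above the single 36 h array that detected it), miR-879* (6.23-fold above the highest 36 h spot), miR-675-3p from the imprinted H19 transcript (at least 10.4-fold) and miR-298 (at least 7.74-fold). miR-675-3p had -16.49, -16.98 and -16.76 at 60 h and miR-298 -17.25, -16.93 and -17.31, levels at which the SD over replicates is wide.

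The arms of a hairpin mostly had changes of the same sign. Of 43 pairs of strands tested, this held for 36. In 8 both strands fell, in 1 both rose (miR-31), and none was called in opposite directions relative to U6. Of all 279 tested assays 211 had a negative change and 68 a positive one, so unrelated assays often share a sign too. Over all tested assays 49.5% were called lower and 5.38% higher. In 13 pairs the arms differed by more than 1 log2 unit, and nearly all pairs have their arms on different cards. miR-125b* was paired with both miR-125b-5p and miR-125b-3p, which cannot both be its opposite arm. The latter pair, with a difference of -1.82, is among the 13. miR-376b* fell (-3.21 ± 0.24, levels -9.66, -9.51 and -9.53 against -13.03, -12.64 and -12.65) while miR-376b changed by -0.32. let-7g (-1.35), miR-26b (-2.25) and miR-467b (-2.52) fell while let-7g*, miR-26b* and miR-467b* changed by 0.18, -0.45 and -0.52. Hairpins within 10000 bases of each other formed 19 groups with 77 tested mouse assays, and no group held a called increase beside a called decrease among these. With 5.38% of all tested assays called higher, few groups could have held both. Called increases lay only in the groups of miR-206, of miR-17 and of miR-25. Rat assays were not placed: that for miR-351 rose, and miR-322* of the same X chromosome cluster fell.

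Mouse and rat assays named for the same miRNA gave an estimate of how far a change can differ between assays. The pairs of miR-190b, miR-20b and miR-489 lie on different cards, so there card and assay cannot be told apart. In 9 pairs tested, the change differed by -0.03 for miR-7a* (0.37 against 0.34) at the least and by 1.55 for miR-1 at the most. In 4 pairs, miR-190b and miR-20b among them, it differed by more than 1 log2 unit. For miR-224 both fell, with a change of -3.41 ± 0.09 on the mouse assay and -2.04 ± 0.09 on the rat assay. miR-20b gave 0.48 ± 0.17 on card A and its rat assay -0.77 ± 0.25 on card B, neither called.

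The 0 and 72 h arrays place the 2 times within the course. The time of 72 h is that of the labels, and the authors' tables name a later day for it. In the order 0, 36, 60 and 72 h the mean level of miR-31 was -15.11, -7.82, -5.18 and -6.10, and that of miR-182 was -18.15, -12.21, -9.46 and -10.41, so that both stood highest at 60 h. miR-206 stood at -3.86, -3.37, -1.81 and -1.03 and miR-133b at -12.77, -8.81, -7.16 and -6.66, highest at 72 h. miR-18a was detected on 1 of 3 arrays at 0 h (-18.60) and stood at -10.01, -8.49 and -10.07 thereafter.

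Among the decreases the course took different shapes. miR-223 had means of -12.62, -4.98, -8.57 and -8.81 in the same order, miR-143 of -9.67, -7.10, -11.76 and -11.94, and miR-126-3p of -4.73, -2.51, -6.51 and -6.62, each highest at 36 h. miR-127 stood at -4.72, -6.67, -9.72 and -9.89 and miR-489 at -9.06, -10.46, -13.91 and -15.72, each highest at 0 h and lower at every later time. miR-195 (-4.20, -3.78, -6.77 and -8.67) and miR-30a (-7.07, -6.13, -8.81 and -9.96) lay within 1 log2 unit at 0 and 36 h and lower from 60 h on. These means have 3 arrays each and share the 36 and 60 h values with the comparison above, and the steps to 0 and 72 h were not tested here.

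**Figure D5:**
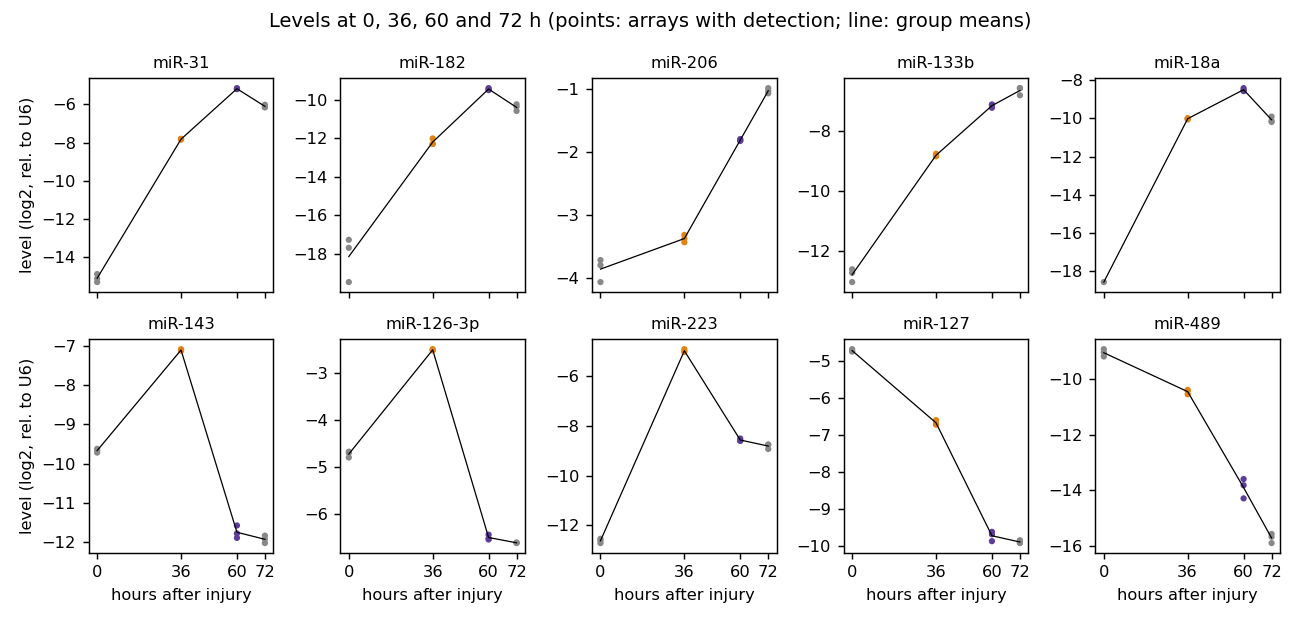
Levels of 10 miRNAs (y axes, log2 relative to U6, each with its own range) at 0, 36, 60 and 72 h after injury (x axis, to scale by the times in the labels). Points are the arrays that detected the miRNA, up to 3 per time, and lines join group means. miR-31, miR-182 and miR-18a are highest at 60 h, miR-206 and miR-133b at 72 h, miR-143, miR-126-3p and miR-223 at 36 h, and miR-127 and miR-489 at 0 h.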

How the data were processed

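miRNAs of muscle stem cells at 36 and 60 h after injury were measured on 12 real-time PCR arrays. The deposited array files hold a threshold cycle (Ct) per spot, an inverse log2 scale set by the authors, per the file headers. Which software set it is not given in the sources used here. Each card's type was read from the assay names of its array. The authors' tables of Ct and dCt per card were used for 1 alternative, and 60 of their per-sample columns were not used. Levels were the mean U6 Ct of the array minus the assay Ct, with spots of an assay averaged. limma 3.58.1 in R 4.3.3 fitted each card's 12 arrays of 4 time points, with Benjamini-Hochberg adjustment over both cards. On simulated data of 279 assays for this comparison, 49 of 52 changes of 1.5 and 47 of 48 of 3 (log2) were recovered. Recovery asked for an adjusted p below 0.05 and the right sign, without the 2-fold rule. By the full rule 0 of 179 unchanged assays was called. Depth does not apply to PCR arrays, and 3 arrays per group limit the precision. Assays detected in 1 group alone were not tested: the other group was set to Ct 35, or to its highest spot where it had one. The members, lists and naming rule were chosen with earlier results of these data known. Named are the 12 largest called changes each way with 3 of 3 arrays detected and no overlap, the 5 largest each way detected in 1 group alone, up to 4 members of each list and those that moved against it, and 12 miRNAs chosen by name. All 32 sequences looked up were found. Alternatives were other reference RNAs, the authors' constants, detection limits of Ct 32 and 40, undetected values at Ct 35, the lowest-Ct spot, 36 and 60 h arrays alone, the replicate number as a block, and leaving out each replicate. Partner strands, miR-335-5p, miR-15b and the pairs of mouse and rat assays beyond the rule were named after their values were seen.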

Additional observations from a re-analysis of the deposited data

How the results depend on the processing

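The reference RNA moved the counts most. Beside 15 assays higher and 138 lower with U6, snoRNA202 gave 94 and 54, the global mean 75 and 64, Y1 46 and 99, and the other settings tried gave 10 to 20 higher and 121 to 194 lower. The median change of -1.02 became 0.48 with snoRNA202, 0.10 with the global mean, -0.91 with snoRNA135, -0.37 with Y1, -1.96 with the authors' constants, -0.96 with a limit of Ct 32, -1.17 with undetected values at Ct 35 and -0.98 with the lowest-Ct spot, moves larger than its SD over the 60 h arrays (0.02). The cause of the difference between references was not tested. Without 1 replicate, 14 to 16 assays were higher, 130 to 139 lower, and the median lay between -1.05 and -0.98. With limits of Ct 32 and 40 the mean number detected per array changed by -29.3 and -16.3 on card A (-22.7 at Ct 35) and by -23.0 and -15.0 on card B (-18.3 at Ct 35), and with Ct 32 the assays detected at 60 h alone numbered 3 in place of 6.

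Of 95 named assays 18 changed sign in a called result under some setting. With snoRNA202 and the global mean these were miR-1 (0.26 and 0.18), miR-16 (0.36 and 0.28), let-7g (0.18 and 0.10), let-7i (0.50 and 0.42), miR-29a (0.26 and 0.18), miR-30c (0.29 and 0.21), miR-24 (0.26 and 0.18), miR-27a (0.46 and 0.38), miR-222 (1.33 and 1.25), miR-301a (1.44 and 1.36) and miR-215 (1.19 and 1.11). With snoRNA202 alone they were let-7b (0.048), miR-27b (0.077), miR-148b (1.03) and miR-138 (1.05). With the authors' constants they were miR-206 (-0.69), miR-20a* (-0.79) and miR-805 (-0.94), all on card B, as are miR-31* (0.36, no longer called) and miR-106b* (-1.15, outside the 95), where the constant at 36 h was 16.97 and the mean U6 Ct 14.71. Among the 95, snoRNA202 ended 23 calls and added 18, the global mean ended 22 and added 16, Y1 ended 10 and added 5, and snoRNA135 ended 2.

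Equal replicate numbers did not pair the samples. The deviations of equally numbered 36 and 60 h arrays correlated at -0.139, 0.037 and 0.039 on card A and at -0.024, -0.009 and -0.332 on card B (description over 173 and 91 assays), and 1 of 6 correlated best with its own number. With the replicate block 278 assays were tested, 14 were higher and 138 lower, and no named assay changed its call.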
